A study of Homo sapiens with 108 samples.

Results

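The 5 genes of the p53 feedback circuit were followed: MDM2, MDM4, PPM1D, CCNG1 and CCNG2, taken as every probe whose only annotated symbol was one of them. They were read by 7 probes of 54359 (1 each for MDM2, PPM1D, CCNG1 and CCNG2, and 3 for MDM4) and make up 5 of the 18278 genes named on the array. All 7 probes passed the filter on missing and dim values. Counts of members take 1 probe per gene, and for MDM4 this is its brightest, 95002, which the platform annotation ties to an expressed sequence tag, as it does the dim probe 276036, while the dim probe 300015 is tied to a RefSeq transcript of the gene. The 3 probes did not behave alike, so each MDM4 value below is that of probe 95002 unless another is named. In GRCh38.p14 the genes lie at chr12:68808172-68850686 (MDM2), chr1:204516406-204558120 (MDM4), chr17:60600193-60666280 (PPM1D), chr5:163437571-163457640 (CCNG1) and chr4:77157207-77170060 (CCNG2). The arrays were single-colour CodeLink whole-genome arrays of RNA from 6 established human melanoma lines, namely MeWo, HMV-II, HMV-I, Colo679, C32TG and 92-1. Cells of each line received 2 Gy of carbon ions (a heavy-particle beam) or 2 Gy of X-rays and were sampled 1 h or 3 h later, and each beam had unirradiated (0 Gy) arrays of its own, giving 36 groups of 3 arrays and 108 arrays in all. The 1 h and 3 h arrays of a beam were set against the same unirradiated arrays, whose sampling time the labels do not give. Whether a group's 3 arrays stem from separate cultures is not stated in the labels, so p-values within a line measure only how far these arrays spread, which may be technical. The tests across lines took a single change from every line.

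p53 is a transcription factor that rises and becomes active after DNA damage, and several of the genes it switches on turn it off again. MDM2 is the ubiquitin ligase that marks p53 for degradation, and MDM4 is its close relative, which binds p53, masks its activation domain and pairs with MDM2. PPM1D encodes the phosphatase Wip1, which removes damage-induced phosphates from p53 and from kinases that activate it. CCNG1 encodes cyclin G1, a p53 target that brings protein phosphatase 2A to MDM2. CCNG2 encodes the related cyclin G2, known less as a p53 target than as a gene induced by FOXO factors in cells that leave the cycle.

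The start regions of MDM2 and PPM1D are shown because these members moved together at 3 h. They are the 250 bases before a RefSeq start (build GRCh38.p14, plus strand, 5′ to 3′), with paired p53 half-sites in capitals. The MDM2 stretch, chr12:68808767-68809016, precedes the gene's inner starts; the PPM1D stretch is chr17:60599943-60600192.
MDM2: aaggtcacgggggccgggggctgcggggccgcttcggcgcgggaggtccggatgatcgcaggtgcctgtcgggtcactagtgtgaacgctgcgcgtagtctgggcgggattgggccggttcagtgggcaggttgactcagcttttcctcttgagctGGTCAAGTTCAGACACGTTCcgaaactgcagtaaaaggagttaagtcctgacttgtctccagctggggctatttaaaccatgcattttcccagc
PPM1D: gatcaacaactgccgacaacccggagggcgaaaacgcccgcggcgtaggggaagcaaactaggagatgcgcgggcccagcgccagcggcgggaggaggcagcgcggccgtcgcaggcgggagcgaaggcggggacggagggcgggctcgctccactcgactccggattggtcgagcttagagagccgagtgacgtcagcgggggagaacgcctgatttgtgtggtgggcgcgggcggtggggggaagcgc
All 5 members had at least 1 window in the RefSeq promoter table (9 windows of 300 bases, from 250 before to 50 after a start). A pair was counted where 2 matches to the p53 half-site consensus, each with at most 1 mismatch, lay 0 to 13 bases apart; the half-site reads the same on both strands. Such a pair lay in 5.25% of all 35116 windows of the same length. In MDM2 both windows of the inner starts held the pair GGTCAAGTTC and AGACACGTTC with no base between them, at chr12:68808923-68808942, and the 2 windows of the outer starts held none. In CCNG1 the pair was GAAAATGCCC and GAGAAAGCCC with 9 bases between, at chr5:163437529-163437557. The windows of PPM1D, MDM4 and CCNG2 held no such pair, and no window of any member held the FOXO heptamer GTAAACA or its reverse complement TGTTTAC, which 3.42% of all windows held. A match of letters is a description and not a bound site.

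Values are the deposited spot intensities, where 1 is about the median spot of an array. Fits used log2 values after quantile normalization, and 32060 probes were tested. Missing values numbered 1000 to 8034 per array, and replicate arrays correlated with r = 0.987 to 0.998. Of 7 melanocyte markers with a probe, 5 to 7 lay above the median spot in 5 lines and 2 (MITF and PMEL) in HMV-I, whose summed level was 22.1 against 588 to 1970 in the others. TYRP1 and MLANA, which make and mark melanosomes, stood at 0.403 and 0.492 in HMV-I, below the median spot. Of 5 fibroblast markers, 1 to 3 lay above the median spot in each line (summed level 5.98 in HMV-I to 64.5 in MeWo); of 3 keratinocyte markers at most 1 did, and of 2 leukocyte markers none. In bulk RNA, fewer cells of a kind and less RNA per cell cannot be told apart.

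Before irradiation the lines held different amounts of MDM2, MDM4 and PPM1D RNA. Each line's level below is the geometric mean of its 2 sets of unirradiated arrays after normalization, and the moderated F test for line used the spread between those sets as its error. MDM2 passed (adjusted p = 9.71e-05), as did MDM4 (0.00895) and PPM1D (0.0131), while CCNG2 (0.0843) and CCNG1 (0.477) did not. Of all probes 57.4% passed, so 3 members of 5 is close to the background.

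MDM2 was highest in HMV-II (3.32) and HMV-I (3.07), lower in C32TG (1.70), Colo679 (1.68) and 92-1 (1.31), and lowest in MeWo (1.09), a 3.05-fold span. HMV-II led in the carbon-ion set (3.83 against 2.93 in HMV-I) and HMV-I in the X-ray set (3.21 against 2.87), and the pair was not called apart (adjusted p = 0.703). Only the step from HMV-I to C32TG separated neighbours in this order (adjusted p = 0.00533 over all probes and pairs), and 10 of the 15 pairs of lines differed, beside 25.3% of all probe-by-pair tests. PPM1D ran in another order: MeWo was highest (10.6), then C32TG (6.35), HMV-II (6.10), 92-1 (5.25), HMV-I (4.07) and Colo679 (2.99), with no neighbours apart and 3 of 15 pairs apart, MeWo against Colo679 and HMV-I and C32TG against Colo679. MDM4 probe 95002 was highest in 92-1 (5.93), followed by HMV-I (5.25), C32TG (4.39), Colo679 (4.18) and HMV-II (4.06), and lowest in MeWo (2.44). The order of the upper lines turned with the set: HMV-I stood above 92-1 in the X-ray set (6.64 and 6.00) and below HMV-II in the carbon-ion set (4.16 and 4.32), while MeWo was lowest in both. MeWo differed from its neighbour HMV-II (adjusted p = 0.0396) and from the other 4 lines, which made up the 5 pairs called for this probe. Probe 300015, which also passed the test for line (adjusted p = 0.0386), gave another order, from HMV-II (1.41) through HMV-I (1.11), Colo679 (1.00), C32TG (0.993) and 92-1 (0.835) to MeWo (0.725), with HMV-II called above 92-1 (adjusted p = 0.0304) and above MeWo (0.00955). Probe 276036 did not pass (adjusted p = 0.406). MeWo was lowest on all 3 probes, while 92-1 was highest on probe 95002, by the mean of the sets, and next to lowest on probe 300015. CCNG2 ran from HMV-II (4.99) through C32TG (3.28), MeWo (3.24), 92-1 (2.54) and HMV-I (2.38) to Colo679 (1.37), with 1 pair of 15 apart, HMV-II and Colo679. CCNG1 ran from HMV-II (44.4) through 92-1 (34.6), Colo679 (31.7), C32TG (29.2) and MeWo (23.0) to HMV-I (19.2), and no pair of lines was called apart. The gap between the 2 sets counts as error in these tests. The standard error of a pair was 0.59 for CCNG1 and 0.18 for MDM2 on the log2 scale. MeWo had the lowest MDM2 level and the highest PPM1D level.

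The 2 unirradiated sets of a line were often not alike, most so for the cyclins and PPM1D. CCNG1 read 49.5, 58.6 and 56.4 on the unirradiated carbon-ion arrays of C32TG and 13.9, 23.1 and 22.7 on those of the X-ray set, a 2.96-fold gap without overlap. In 92-1 its values were 52.5, 57.0 and 54.5 against 18.4, 18.3 and 30.7, again without overlap, and in Colo679 they were 28.9, 34.3 and 29.3 against 30.6, 35.6 and 31.4, which overlapped. By group means after normalization CCNG1 was higher in the carbon-ion set in 5 of 6 lines. These included HMV-II (1.92-fold), HMV-I (1.90-fold) and MeWo (1.72-fold), with Colo679 at 0.983-fold. CCNG2 was higher in the carbon-ion set in 5 of 6 lines, up to 2.38-fold in MeWo, with Colo679 the other way (0.831-fold). PPM1D was higher there in 6 of 6 lines, from 1.03-fold in Colo679 to 1.80-fold in 92-1. MDM4 differed the other way in HMV-I, where probe 95002 read 3.73, 4.12 and 4.03 in the carbon-ion set and 5.31, 5.38 and 5.92 in the X-ray set, without overlap (0.626-fold), and probe 300015 was at 0.552-fold. Averaged over lines the set difference was 0.95 ± 0.58 on the log2 scale for CCNG1 (SD, n = 6 lines; adjusted p = 0.387), 0.75 ± 0.53 for CCNG2 (0.387), 0.50 ± 0.34 for PPM1D (0.390), 0.11 ± 0.20 for MDM2 (0.647) and -0.16 ± 0.32 for MDM4 (0.626). In limma no probe of the array passed for this difference (0%), though 3 members, CCNG1, CCNG2 and PPM1D, and 3116 probes had an unadjusted p below 0.05. What set the 2 unirradiated sets apart was not tested, and each beam below is read only against its own set.

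**Figure D1:**
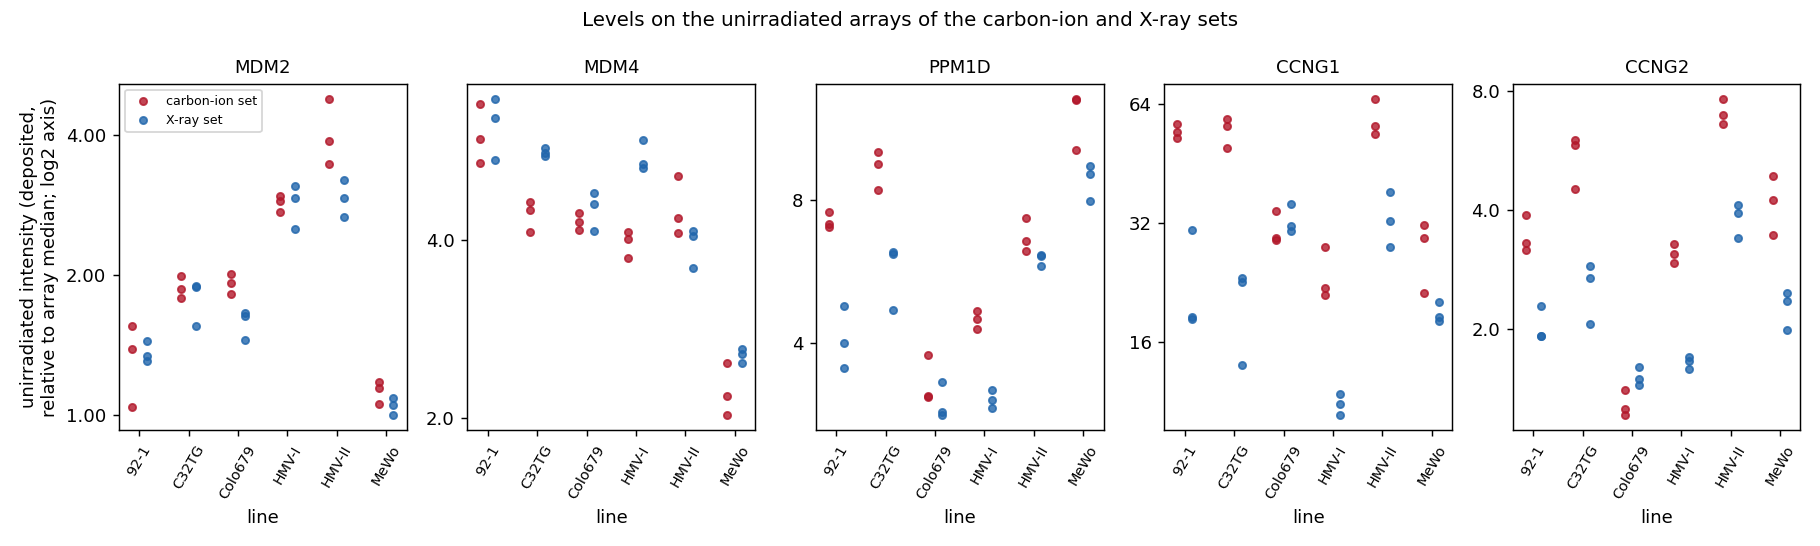
Deposited intensity of each member (log2 axis, relative to the array's median spot) on the 3 unirradiated arrays of the carbon-ion set (red) and of the X-ray set (blue) of each line. For CCNG1 the sets lie apart in C32TG and 92-1 and overlap in Colo679. Its mean after normalization is higher in the carbon-ion set in 5 of 6 lines. MDM2 is highest in HMV-II and HMV-I in both sets.

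MDM2 rose at 3 h in C32TG, Colo679 and HMV-II after both beams and in 92-1 after carbon ions. In C32TG it read 1.79, 1.99 and 1.87 on the unirradiated carbon-ion arrays and 4.38, 4.51 and 4.21 at 3 h, and 1.55, 1.89 and 1.88 against 5.12, 4.70 and 5.25 for X-rays. No irradiated value came near an unirradiated one, and the changes were 1.06 ± 0.08 (log2 ± SE of the fit within the line; 2.09-fold) and 1.48 ± 0.08 (2.78-fold), with adjusted p = 6.57e-08 and 5.11e-10. In Colo679 it went from 1.93, 2.01 and 1.82 to 3.00, 3.29 and 3.25 after carbon ions and from 1.45, 1.66 and 1.64 to 3.07, 2.91 and 2.61 after X-rays. These groups did not overlap either (0.86 ± 0.07 and 0.93 ± 0.07; adjusted p = 7.53e-07 and 3.46e-07). HMV-II went from 3.45, 4.76 and 3.87 to 7.23, 6.82 and 6.40 after carbon ions and from 2.92, 3.19 and 2.66 to 4.51, 5.005 and 4.28 after X-rays. Its changes were 0.78 ± 0.10 (adjusted p = 0.000246) and 0.74 ± 0.10 (0.00134), and the highest level of the study, 7.23, was one of its carbon-ion arrays.

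Changes in the other lines were smaller. In 92-1 MDM2 read 1.39, 1.55 and 1.04 unirradiated and 1.52, 2.04 and 2.098 at 3 h after carbon ions, where 1 irradiated array lay within the unirradiated range of deposited values (0.59 ± 0.14, adjusted p = 0.0197; 0.0556 on the values as deposited and 0.112 without the arrays numbered 2). After X-rays it read 2.05 and 2.07 on the 2 arrays with a value, against 1.34, 1.31 and 1.45, above the controls but short of the threshold (0.53 ± 0.16, adjusted p = 0.0646; 1 array missing). HMV-I gave 2.73, 2.96 and 2.88 and then 2.69, 3.19 and 2.66 for carbon ions, and 2.52, 2.93 and 3.10 and then 2.85, 3.15 and 3.11 for X-rays, with overlap in both (log2 changes 0.09 ± 0.08 and 0.10 ± 0.08). MeWo gave 1.06, 1.18 and 1.14 and then 1.22, 0.928 and 0.979 for carbon ions, and 1.00, 1.053 and 1.09 and then 1.32, 1.04 and 1.03 for X-rays, also with overlap (-0.12 ± 0.13 and 0.10 ± 0.13). In all, 7 of 12 line-by-beam tests of MDM2 at 3 h passed, each of them higher. In those 12 comparisons 2.78% (HMV-II, X-rays) to 20.4% (MeWo, carbon ions) of all probes passed, in either direction. At 1 h none of 12 passed in limma, with changes from -0.14 to 0.45 and a lowest adjusted p of 0.0937.

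PPM1D rose at 3 h in the same 4 lines, after 1 or both beams, and after X-rays in HMV-I. C32TG read 8.39, 9.54 and 10.1 unirradiated and 24.4, 27.8 and 23.7 at 3 h after carbon ions, and 4.70, 6.21 and 6.15 against 13.6, 11.4 and 14.3 after X-rays. These were the largest PPM1D changes of the 6 lines in each beam, 1.35 ± 0.09 (2.55-fold, adjusted p = 3.96e-09) and 1.24 ± 0.09 (2.36-fold, 1.69e-08). In 92-1 PPM1D went from 7.53, 7.11 and 7.02 to 13.6, 17.0 and 16.5 after carbon ions and from 3.55, 4.01 and 4.79 to 8.35, 5.17 and 10.7 after X-rays. The groups were apart in both, widely for carbon ions (1.18 ± 0.18, adjusted p = 0.00113) and narrowly for X-rays, where the lowest irradiated array stood at 5.17 and the highest control at 4.79 (0.85 ± 0.18, 0.0127). Colo679 went from 3.10, 3.77 and 3.09 to 4.79, 6.18 and 3.81 after carbon ions and from 2.86, 3.32 and 2.83 to 3.94, 4.53 and 4.48 after X-rays, both without overlap, narrowly for carbon ions (0.72 ± 0.14, adjusted p = 0.00243; 0.62 ± 0.14, 0.00566). With a single array number left out, the calls of 92-1 after X-rays (without 1 or 3) and of Colo679 after carbon ions (without 2) and X-rays (without 3) no longer passed, at adjusted p = 0.278, 0.0593, 0.0574 and 0.0519.

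In HMV-II PPM1D went from 6.26, 6.56 and 7.34 to 10.5, 11.5 and 8.78 after carbon ions, a call at 0.60 ± 0.10 (adjusted p = 0.00184, and 0.0995 without the arrays numbered 2), and from 5.80, 6.09 and 6.14 to 6.20, 8.49 and 7.40 after X-rays, which just missed it (0.37 ± 0.10, 0.0520). HMV-I was split by beam: after carbon ions 4.28, 4.496 and 4.68 became 4.03, 4.92 and 4.15, with overlap (0.04 ± 0.08, adjusted p = 0.762), while after X-rays 2.92, 3.18 and 3.04 became 3.75, 4.33 and 4.25, without overlap (0.44 ± 0.08, 0.00133). The difference between beams in this line was not tested. MeWo, with the most PPM1D before irradiation, read 12.98, 13.01 and 10.2 and 10.9, 13.96 and 11.3 for carbon ions and 9.07, 9.43 and 7.96 and 8.99, 9.58 and 9.35 for X-rays, overlapping in both (0.12 ± 0.10 and 0.19 ± 0.10). In total 8 of 12 tests of PPM1D at 3 h passed, each of them higher, and none of 12 at 1 h, where changes ran from -0.29 to 0.20 with a lowest adjusted p of 0.220 in limma. Of all probes 2.78% to 20.4% passed in the 12 comparisons at 3 h, in either direction.

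**Figure D2:**
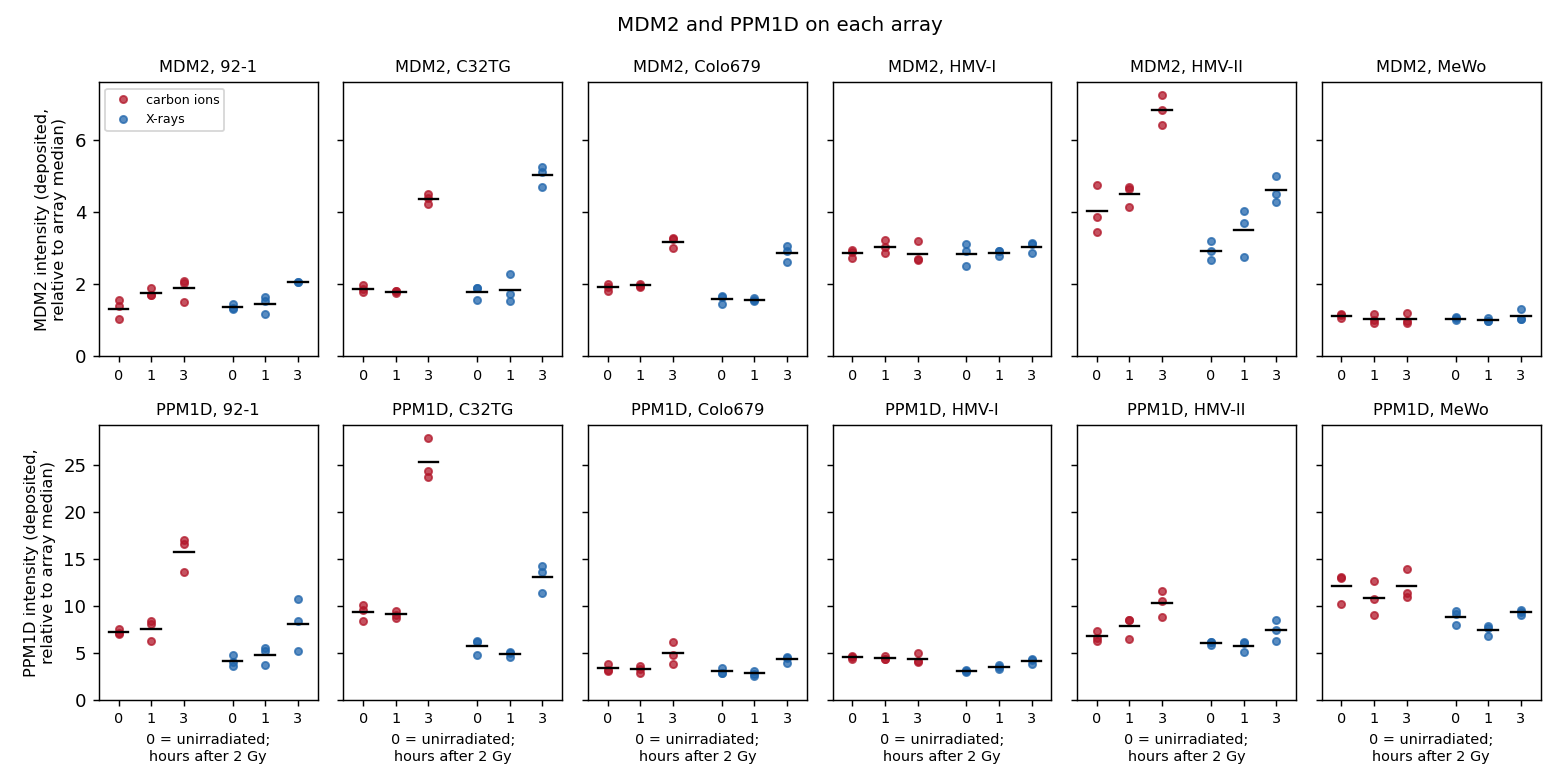
Deposited intensity of MDM2 (top) and PPM1D (bottom) on every array, by line, from 0; red points are carbon-ion arrays, blue points X-ray arrays, and black bars group means. At 3 h the MDM2 points of C32TG sit between 4.21 and 5.25, above all unirradiated ones (1.55 to 1.99), while those of MeWo stay between 0.928 and 1.32, near its controls (1.00 to 1.18).

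Taking 1 value per line, MDM2 rose by 0.54 ± 0.46 on the log2 scale at 3 h after carbon ions (mean ± SD, n = 6 lines; 1.46-fold, adjusted p = 0.0259, higher in 5 of 6 lines) and by 0.65 ± 0.53 after X-rays (1.56-fold, 0.0181, 6 of 6). PPM1D rose by 0.67 ± 0.53 after carbon ions (1.59-fold, adjusted p = 0.0188, 6 of 6) and by 0.62 ± 0.38 after X-rays (1.53-fold, 0.00630, 6 of 6). These were 2 of 5 members in each beam, where 6.43% of all probes were called higher after carbon ions and 2.96% after X-rays, and 6.98% and 4.19% lower. At 1 h after carbon ions MDM4 probe 95002 was called lower, and no member higher, beside 6.03% and 4.67% of all probes. At 1 h after X-rays limma called no member (0.368% of probes higher and 0.786% lower), and 1 member, CCNG2, had an unadjusted p below 0.05, as did MDM4 probe 300015. The median change of the 5 members was 0.12 at 3 h after carbon ions and 0.10 after X-rays, against 0.0040 and 0.0046 over all probes. Both medians are the value of MDM4 probe 95002, which did not pass, and with MDM4 probe 300015 in its place they would be -0.05 and 0.08. With median centring in place of quantile normalization the split of all calls shifted, from 48.0% higher to 76.5% at 3 h after carbon ions, 41.4% to 70.4% at 3 h after X-rays, 43.6% to 66.9% at 1 h after carbon ions and 31.9% to 47.5% at 1 h after X-rays, while the called members kept their sides.

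Of the 4 calls at 3 h across lines, 3 stand close to the threshold. Without 92-1, Colo679 or HMV-II no member passed after carbon ions (MDM2 0.0729, 0.0773 and 0.0792; PPM1D 0.0628, 0.0511 and 0.0502, adjusted p), MDM2 also missed without C32TG (0.0501) or without the arrays numbered 1 (0.0541), and without HMV-II it missed after X-rays (0.0632). When the variance trend was taken against the mean difference, limma's default, 1 of the 4 calls remained, PPM1D after X-rays, with MDM2 at 0.0518 and 0.0703 and PPM1D at 0.0644 after carbon ions. PPM1D after X-rays passed without any single line or array number, and was lost when that trend was combined with normalization over all probes (0.0679).

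PPM1D and MDM4 probe 95002 were higher at 3 h than at 1 h. Averaged over beams, PPM1D was 0.65 higher at 3 h than at 1 h (95% interval 0.36 to 0.95, adjusted p = 0.0230) and MDM4 probe 95002 0.25 higher (0.18 to 0.32, 0.00382), both in 6 of 6 lines. The other MDM4 probes did not share this: probe 276036 stood at -0.08 (adjusted p = 0.333, higher in 1 of 6 lines) and probe 300015 at -0.02 (0.882, 3 of 6). MDM2 was 0.51 higher, also in 6 of 6 lines, and did not pass (0.21 to 0.81, adjusted p = 0.0613), though it did under median centring (0.0382), on the values as deposited (0.0435) and without HMV-I (0.0489). CCNG2 (-0.10, adjusted p = 0.455) and CCNG1 (-0.02, 0.937) did not pass. In all, 2 of 5 members were called, beside 4.51% of all probes, and the PPM1D call was lost without 92-1 (0.0649) or Colo679 (0.0630), and both calls with the default trend (0.118 and 0.0737).

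No member was called for a difference between beams. At 3 h the change after carbon ions minus that after X-rays was -0.10 for MDM2 (95% interval -0.27 to 0.07), 0.05 for PPM1D (-0.14 to 0.24), 0.02 for MDM4 probe 95002 (-0.16 to 0.20), -0.15 for CCNG1 (-0.40 to 0.11) and -0.20 for CCNG2 (-0.43 to 0.03). At 1 h the differences ran from -0.11 to 0.04. By limma 0 of 5 members and 0% of all probes passed at 3 h, and likewise 0% at 1 h. On the 1 probe per gene counted here no unadjusted p was below 0.05 at either time (lowest 0.0736 at 1 h and 0.0802 at 3 h), where 2421 and 1430 of all probes were. MDM4 probe 300015 did have one at 3 h: its change after carbon ions minus that after X-rays was 0.25 (95% interval 0.07 to 0.43, unadjusted p = 0.00999 in limma), higher in 6 of 6 lines, with adjusted p = 1.00. The intervals leave room for differences of up to 0.43 on the log2 scale at 3 h (CCNG2 and MDM4 probe 300015).

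**Figure D3:**
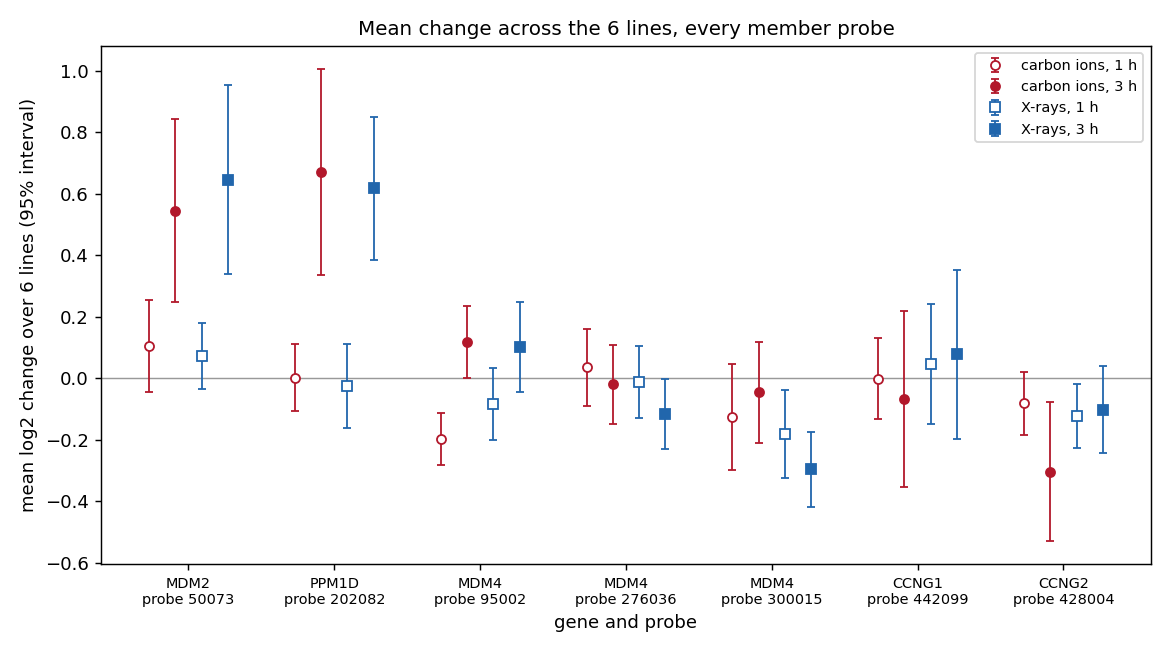
Mean log2 change over the 6 lines with its 95% interval for every member probe, by beam (red circles, carbon ions; blue squares, X-rays) and time (open, 1 h; filled, 3 h). The filled points of MDM2 and PPM1D lie between 0.54 and 0.67, and the open point of MDM4 probe 95002 after carbon ions lies at -0.20.

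The lines differed in how far MDM2 and PPM1D moved at 3 h. The moderated F test for line took 1 change per line and beam. Its error was the spread between the 2 beams of a line, in which any true beam difference also counts. Averaged over beams the MDM2 change was 1.27 in C32TG, 0.89 in Colo679, 0.76 in HMV-II, 0.56 in 92-1, 0.09 in HMV-I and -0.01 in MeWo (moderated F for line over 12 changes, adjusted p = 0.00283). For PPM1D it was 1.29 in C32TG, 1.01 in 92-1, 0.67 in Colo679, 0.49 in HMV-II, 0.24 in HMV-I and 0.16 in MeWo (adjusted p = 0.0142). Both changes were largest in C32TG and smallest in MeWo, with HMV-I next, and 92-1 stood higher in the order for PPM1D than for MDM2. These 2 of 5 members were called where 0.187% of all probes, 60 in number, were. CCNG1, with changes from -0.45 in Colo679 to 0.69 in C32TG, did not pass (adjusted p = 0.192), nor did CCNG2 (0.524) or MDM4 (0.691). At 1 h limma called no member (0.0312% of probes); PPM1D and CCNG1 had an unadjusted p below 0.05. The PPM1D call at 3 h was lost without the arrays numbered 1 or 3, when the normalization was taken over all probes, and with the default trend, and the MDM2 call under the default trend taken with that normalization.

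The changes of MDM4 were small, and its 3 probes did not give 1 direction. Its brightest probe (95002) fell by 0.20 on the log2 scale at 1 h after carbon ions (SD 0.06, n = 6 lines; 0.872-fold, adjusted p = 0.00945), lower in 6 of 6 lines. In C32TG the arrays read 4.13, 4.497 and 4.65 unirradiated and 3.94, 3.75 and 3.75 at 1 h, without overlap, and this was the only member call within a line at 1 h (-0.29 ± 0.07, adjusted p = 0.00816). MeWo read 2.18, 2.03 and 2.48 and then 1.95, 2.09 and 1.54, with overlap, and HMV-I 3.73, 4.12 and 4.03 and then 3.55, 3.38 and 3.35, without. After X-rays the 1 h change was -0.08 ± 0.15 (adjusted p = 0.552). At 3 h this probe stood at 0.12 ± 0.11 after carbon ions (0.156) and 0.10 ± 0.19 after X-rays (0.408), and the 1 call was HMV-I after X-rays, from 5.31, 5.38 and 5.92 to 7.07, 6.96 and 6.95 (0.29 ± 0.07, adjusted p = 0.00935). The 1 h call across lines did not pass without the arrays numbered 3 (adjusted p = 0.0779). The C32TG call was lost without the arrays numbered 2 or 3 and on the values as deposited (0.117), and the HMV-I call without any 1 of the 3 numbers.

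The other 2 MDM4 probes were dim, near the median spot of the arrays. Probe 300015 stood at -0.13 ± 0.24 at 1 h after carbon ions (adjusted p = 0.337), where the brightest probe was called lower, and at -0.18 ± 0.20 after X-rays (0.229). At 3 h after X-rays it was lower in 6 of 6 lines and passed (-0.30 ± 0.11, adjusted p = 0.00906; 0.0580 with the default trend and normalization over all probes together), where the brightest probe was higher in 4 of 6. In HMV-I, for example, it read 1.65, 1.39 and 1.26 unirradiated and 1.07, 1.08 and 1.10 at 3 h after X-rays, its only call within a line (-0.44 ± 0.13, adjusted p = 0.0250) and the reverse of the brightest probe on the same arrays. Probe 276036 was not called in any of the 4 comparisons (lowest adjusted p 0.208, at 3 h after X-rays, -0.12 ± 0.09). The probe tied to the RefSeq transcript was the one called lower at 3 h after X-rays, and probe 95002, tied to an expressed sequence tag, was the one called lower at 1 h after carbon ions. The 3 probes give no single direction for MDM4, and where on the transcript each probe lies is not given in the sources used here.

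CCNG1, the brightest member on these arrays, had calls in both directions at 3 h. The moderated F test for a difference between lines in this change did not pass (adjusted p = 0.192). In C32TG it rose after both beams, from 49.5, 58.6 and 56.4 to 82.6, 96.6 and 88.0 at 3 h after carbon ions and from 13.9, 23.1 and 22.7 to 32.8, 24.2 and 38.1 after X-rays. Neither pair of groups overlapped (0.67 ± 0.14, adjusted p = 0.00492; 0.71 ± 0.14, 0.00335), yet the irradiated X-ray arrays stood below the unirradiated carbon-ion arrays of the same line. In Colo679 it fell after X-rays, from 30.6, 35.6 and 31.4 to 17.7, 23.3 and 21.01 (-0.60 ± 0.20, adjusted p = 0.0398), and read 28.9, 34.3 and 29.3 and then 23.8, 33.2 and 19.1 after carbon ions, with overlap (0.302). In HMV-II it fell after carbon ions, from 53.9, 56.4 and 65.8 to 43.6, 49.3 and 47.1 (-0.47 ± 0.12, adjusted p = 0.0217), while after X-rays it read 27.8, 38.2 and 32.3 and then 42.8, 47.0 and 37.9 (0.41 ± 0.12, 0.0642). HMV-II is the line where the 2 beams' values part, and there the unirradiated sets also differed 1.92-fold; this difference between beams was not tested. Its spread between arrays was wide elsewhere: the 3 arrays of 92-1 at 3 h after X-rays read 31.1, 14.7 and 42.8. Across lines the mean change was -0.07 ± 0.45 at 3 h after carbon ions (adjusted p = 0.757), a sign that median centring turned (0.04), and 0.08 ± 0.47 after X-rays (0.763). In all, 4 of 12 tests at 3 h passed, 2 higher and 2 lower. In those 12 comparisons 2.78% to 20.4% of all probes passed, in either direction. The HMV-II fall was lost under median centring, as deposited and without any 1 of the 3 array numbers. The Colo679 fall was lost without the arrays numbered 1 or 2. The C32TG rises were lost without the arrays numbered 2 or 3 (carbon ions) or 1 (X-rays).

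CCNG2 fell at 3 h after carbon ions in 2 lines. In HMV-I it went from 2.93, 3.11 and 3.29 to 1.58, 1.84 and 1.78 at 3 h, without overlap (-0.83 ± 0.09, 0.564-fold, adjusted p = 7.72e-06). In HMV-II it went from 6.59, 7.60 and 6.93 to 4.54, 5.81 and 3.84, also without overlap (-0.54 ± 0.12, adjusted p = 0.00763). These were its only calls of 12 at 3 h, and the one in HMV-II was lost without the arrays numbered 2 or 3. In these 2 comparisons 14.1% (HMV-I) and 8.46% (HMV-II) of all probes passed, in either direction. After X-rays the same lines read 1.59, 1.71 and 1.67 and then 1.31, 1.52 and 1.45 in HMV-I (-0.23 ± 0.09, adjusted p = 0.0756) and 4.12, 3.92 and 3.40 and then 2.97, 3.71 and 3.06 in HMV-II (-0.12 ± 0.12, 0.576). The X-ray sets began lower: the unirradiated HMV-I arrays of that set stood near the irradiated ones of the carbon-ion set, and whether this moves with the smaller change was not tested. In MeWo carbon ions gave 4.23, 4.88 and 3.46 and then 3.16, 3.18 and 2.70, which overlapped on the normalized scale (-0.33 ± 0.13, adjusted p = 0.0751), a test that passed with the values as deposited, without the arrays numbered 3 (where CCNG1 passed too) and with the array number as a block. Across lines the change at 3 h was -0.30 ± 0.34 after carbon ions (lower in 5 of 6 lines, adjusted p = 0.0729) and -0.10 ± 0.18 after X-rays (0.387); the carbon-ion value passed without C32TG (0.0351). At 1 h it was -0.08 ± 0.11 and -0.12 ± 0.11 and did not pass (0.300 and 0.270).

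**Figure D4:**
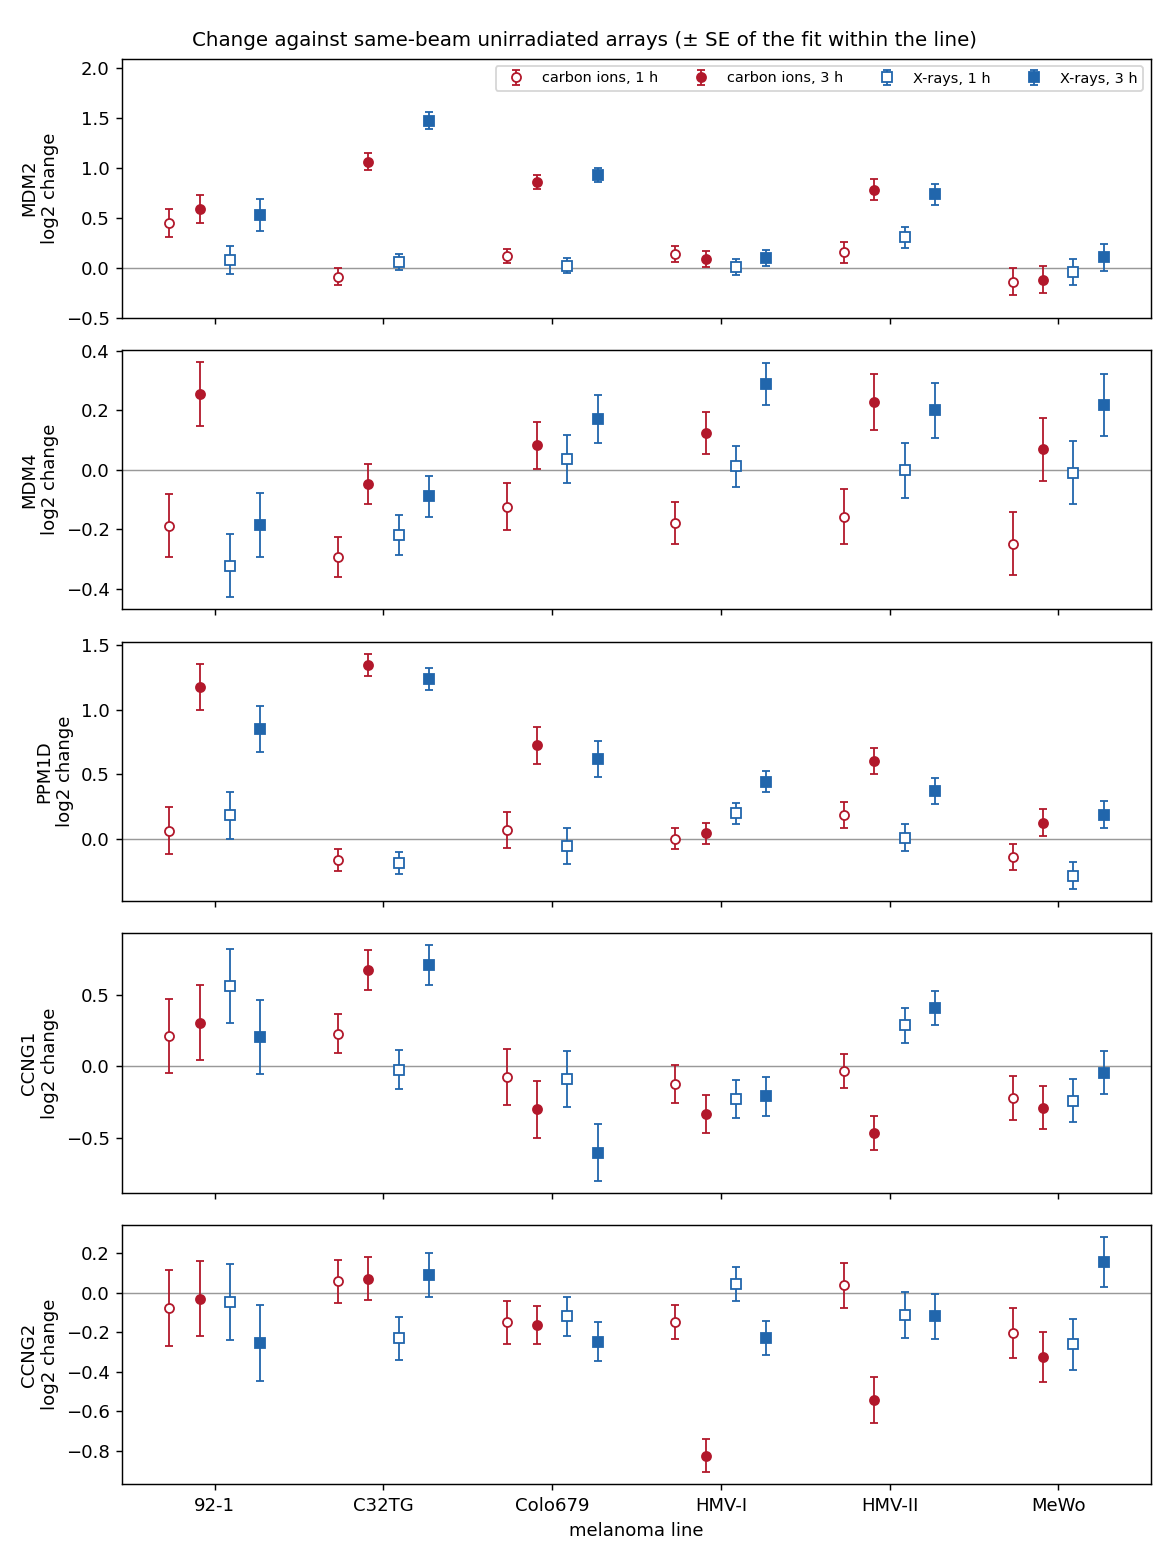
Log2 change of each member in each line against the unirradiated arrays of the same beam, with the standard error of the fit on the line's 18 arrays (red circles, carbon ions; blue squares, X-rays; open, 1 h; filled, 3 h). The filled MDM2 and PPM1D points are highest in C32TG and near 0 in MeWo, while the filled CCNG1 points lie at 0.67 and 0.71 in C32TG and at -0.30 and -0.60 in Colo679.

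Counted by line, the members' calls are set beside the share of all probes called in that line. In C32TG 7 of 20 member tests passed (5 genes by 4 comparisons), beside 9.17% of all probes at 1 h after carbon ions, 7.05% at 1 h after X-rays, 7.99% at 3 h after carbon ions and 6.73% at 3 h after X-rays. Colo679 had 5 of 20, with 2.29%, 0.609%, 17.9% and 18.9% of probes in that order. For HMV-II it was 5 of 20, with 0.724%, 0.0972%, 8.46% and 2.78%. MeWo had 0 of 20 in limma (3 at an unadjusted p below 0.05), where 10.7%, 0.574%, 20.4% and 3.43% of its probes were called in the same order, the largest share of the 6 lines at 3 h after carbon ions. The same count was 3 of 20 in 92-1, with 3.51%, 1.5%, 8.27% and 4.65%. HMV-I also had 3 of 20, with 4.38%, 0.966%, 14.1% and 14%. Over all lines, 1 of 60 member tests passed at 1 h (13 at an unadjusted p below 0.05) and 22 of 60 at 3 h (33).

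MDM2 and PPM1D had the most similar pattern of the 10 pairs over the 24 changes (6 lines, 2 beams, 2 times), with Pearson r = 0.84 and Spearman rho = 0.77; these are descriptions, since the changes share arrays and controls. CCNG1 and CCNG2 had r = 0.58, and MDM4 and CCNG1 had the lowest value of the pairs (r = -0.35). Of the 13662 named genes with a probe that passed the filter, the 3 most like MDM2 were EPHA2 (r = 0.93), ACER2 (0.86) and SESN2 (0.85). Those most like PPM1D were SESN1 (0.97), SLC30A1 (0.91) and LCAT (0.91). For CCNG2 they were HBP1 (0.85), AP3B1 (0.76) and ABHD17B (0.75), for CCNG1 NBPF3 (0.83), YPEL5 (0.82) and SERINC3 (0.82), and for MDM4 PPP1R26 (0.83), ZNF3 (0.83) and PRDM2 (0.82). CDKN1A, the cell-cycle inhibitor p21 and the usual readout of p53 activity, rose at 3 h by 1.20 ± 0.74 after carbon ions (adjusted p = 0.00644) and 1.18 ± 0.81 after X-rays (0.00707). Its change per line ran from 0.34 in HMV-I to 2.23 in 92-1 after carbon ions and from 0.37 in MeWo to 2.31 in 92-1 after X-rays, so HMV-I and MeWo, which had the smallest mean MDM2 changes, also had the smallest CDKN1A changes. Over the 12 changes at 3 h the correlation with CDKN1A was r = 0.87 for PPM1D, 0.61 for MDM2, 0.49 for CCNG1, 0.38 for CCNG2 and -0.56 for MDM4 probe 95002.

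The neighbouring genes of the circuit were taken from lists. Of 25 other p53-induced genes, 23 were tested, and at 3 h 13 rose after carbon ions and 11 after X-rays, with none lower (median change 0.48 and 0.47, against 0.0040 and 0.0046 over all probes). At 1 h 7 rose after carbon ions and 2 after X-rays (median change 0.12 and 0.07), beside 4.67% and 0.368% of all probes called higher; at 3 h those shares were 6.43% and 2.96%. By the mean over both beams, the largest rises after CDKN1A were SESN1 (1.06 ± 0.81 after carbon ions, adjusted p = 0.0148, and 0.93 ± 0.58 after X-rays, 0.00503) and SESN2 (1.07 ± 0.59, 0.00439, and 0.82 ± 0.60, 0.0110), the sestrins that restrain mTORC1 signalling. BAX, the pore-forming apoptosis protein, was at -0.01 and -0.02 and did not pass (adjusted p = 0.884 and 0.845). This list overlaps what these samples were already known to show, so its direction is no independent evidence.

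Other ligases and deubiquitinases acting on p53 or MDM2 mostly did not pass: of 13 tested, 2 rose and 1 fell at 3 h after carbon ions, and 1 rose after X-rays (median change 0.06 and 0.02), where 6.43% of all probes were called higher and 6.98% lower after carbon ions and 2.96% higher after X-rays. The 1 gene lower of 13 is near that background, and the lists that follow hold 1 call each at most per comparison and are read against the same shares. USP2, a deubiquitinase that stabilises MDM2, rose by 0.30 ± 0.26 (adjusted p = 0.0389) and 0.28 ± 0.20 (0.0307), WWP1 by 0.21 ± 0.13 after carbon ions (0.0299), and DAXX, an adaptor of MDM2, changed by -0.22 ± 0.08 there (0.0192, lower in 6 of 6 lines). Of 4 tested proteins that bind and inhibit MDM2, 1 passed: NPM1, nucleophosmin, was lower at 1 h (-0.38 ± 0.34, adjusted p = 0.0321) and 3 h after carbon ions (-0.64 ± 0.38, 0.00674), with -0.27 ± 0.36 at 3 h after X-rays (0.134). At 1 h after carbon ions 6.03% of all probes were called lower and 4.67% higher. At that time 2 of the 13 ligases and deubiquitinases were called higher. CDKN2A, whose ARF product holds MDM2, was at 0.09 and 0.13 and did not pass (0.370 and 0.245). Of 7 tested kinases and other substrates of the PPM1D phosphatase, 1 rose at 3 h, XPC, a DNA damage sensor that is also a p53 target (0.40 ± 0.27, adjusted p = 0.0147, and 0.39 ± 0.32, 0.0249), and the kinase ATM was at -0.04 and -0.09 (0.651 and 0.329).

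Among 8 relatives of PPM1D, the PP2C phosphatases, PPM1A alone passed at 3 h (0.20 ± 0.15 after carbon ions, adjusted p = 0.0419, and 0.23 ± 0.13 after X-rays, 0.0297); the median of the 8 was 0.08 and 0.03. Of 11 tested partners and relatives of the G cyclins, mostly subunits of protein phosphatase 2A, 1 passed: CCNF, cyclin F, was lower at 3 h after carbon ions (-0.39 ± 0.22, 0.00989; 1 of 11, where 6.98% of all probes were lower), with -0.26 ± 0.24 after X-rays (0.0584). The catalytic subunit PPP2CA was at -0.17 and -0.07 (0.167 and 0.489). Of 5 tested FOXO targets outside p53, listed because CCNG2 is one, none passed at 3 h after carbon ions in limma (3 at an unadjusted p below 0.05) and 1 rose after X-rays, TXNIP (0.18 ± 0.07, 0.0425). BCL6 stood at -0.16 ± 0.10 after carbon ions (0.0611, lower in 6 of 6 lines) and CITED2 at -0.18 ± 0.12 (0.0658).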

How the data were processed

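RNA of 6 melanoma lines was hybridised to 108 single-colour CodeLink whole-genome arrays (biotin label; ISOGEN and RNeasy extraction, per the labels' protocols). The deposited values are linear spot intensities, relative to about the array's median spot as far as the values show. No label or header names the scanner software, background correction or flagging, and no array was left out. With 3 arrays per group, the count of arrays limits the precision of each group mean.

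Of 54359 probes, 23472 had 1 gene symbol in the platform annotation, 905 had several and 29982 had none here; 23434 of the named probes were matched to current names through their Entrez identifiers. Values were taken to log2. Probes with at most 10% missing values, a mean above the 40th percentile over all probes and a value in every group were kept (32060) and quantile normalized. Changes against the unirradiated arrays of the same beam and line were tested with limma 3.58.1 in R 4.3.3 (lmFit and eBayes, with a variance trend against each probe's mean level), within each line on its arrays and across lines on 1 change per line. P-values were adjusted by Benjamini-Hochberg over all kept probes, and calls are at 0.05. Missing values were left out of the fits: 1 array each for MDM2 (92-1, X-rays 3 h) and CCNG2 (Colo679, carbon ions 1 h), and 2 for MDM4 probe 276036. MDM4 is represented by its brightest probe. The 3 genes most like each member were taken by Pearson r over 24 changes. From each list, genes were named only among those with the 3 highest and the 3 lowest mean changes at 3 h over both beams. XPC stands in 2 lists. The scripts were tested on simulated data.

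The members, lists and comparisons were chosen with earlier results of these data known. The processing was also settled with the members' p-values in view: a variance trend against the mean difference, limma's default here and the setting run first, no trend, quantile normalization over all probes, and another base for the level percentile had been run before it. The trend against the mean level was kept because array variance depends on level; the default calls fewer members, as given beside the results. Other alternatives were median centring, the values as deposited, a pseudocount of 0.1, no level filter, a fit on all arrays, a block for the array number, and leaving out each array number or line.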

Additional observations from a re-analysis of the deposited data

Results flagged for a closer look

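In 20 sets of 6 line values (5 genes by 4 comparisons), 1 had a line far from the others: MDM2 at 1 h after X-rays, where HMV-II stood at 0.31 on the log2 scale, with a gap to the next line of 0.6488 of the whole range, above Dixon's 95% critical value for 6 values. Chance flags about 1 in 20 such sets. The 3 arrays of that group read 3.69, 4.04 and 2.76 as deposited, against 2.92, 3.19 and 2.66 unirradiated, so the groups overlapped.

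The change at 3 h differed between lines for MDM2, whose line means spanned 1.28 on the log2 scale from C32TG to MeWo, and for PPM1D, whose line means spanned 1.14 between the same lines, by the moderated F test for line.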

How the results depend on the processing

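Of 1018 single values under alternatives, 906 kept their direction and side of the threshold, 49 lost a call, 14 gained one and 49 changed sign, none of which was called in either setting. Of 240 counts, 31 moved by more than 1.5 times. The trend against the mean difference, run first and with the members' values in view, gave 0 members at 3 h after carbon ions, 1 after X-rays, 0 for 3 h against 1 h and 1 for the difference between lines at 3 h (reported: 2 each). With quantile normalization over all probes as well, these were 0, 0, 0 and 0; that normalization alone gave 1 for the difference between lines and 1 in MeWo (MDM4). The fit on all arrays, whose error is the spread between arrays and not between lines, gave 4 at 3 h after carbon ions and 4 for 3 h against 1 h, and 4 and 4 with the replicate block. MeWo, with 0 reported, had 1 (CCNG2) on the values as deposited and 1 (CCNG2) with the replicate block. The array numbers did not pair the arrays: in 0 of 24 comparisons did all 3 numbers correlate above 0.1 (range -0.28 to 0.43), and in 0 did every array correlate best with its own number.

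Leaving out an array number or a line gave 0 to 1 members at 1 h after carbon ions, 0 to 2 at 3 h, 1 to 2 at 3 h after X-rays, 1 to 3 for 3 h against 1 h and 1 to 2 for the difference between lines at 3 h. Within lines the counts are of 20 member tests each, or fewer where a probe could not be tested. A probe needed at least 2 values in each group. Without the arrays numbered 1 or 3, missing values left MDM2 untested in 92-1 and CCNG2 untested in Colo679. For MDM2 in 92-1 its absence from those counts is not a lost call. With an array number left out, 1 to 2 passed in 92-1 (3 reported) and 3 to 4 in Colo679 (5 reported). In HMV-II 2 to 4 passed (5 reported) and in C32TG 5 to 6 (7 reported). HMV-I had 2 to 3 (3 reported) and MeWo 0 to 2 (0 reported). Changes near 0 turned sign: CCNG1 ranged from -0.0473 to 0.0428 at 1 h and -0.216 to 0.0121 at 3 h after carbon ions, from -0.0581 to 0.161 and -0.0480 to 0.214 after X-rays, and from -0.138 to 0.0538 for 3 h against 1 h. PPM1D ranged from -0.0342 to 0.0355 at 1 h after carbon ions, -0.0687 to 0.0282 after X-rays and -0.0767 to 0.162 between beams at 3 h, and MDM4 from -0.0670 to 0.0543 between beams at 3 h. MDM4 probe 276036 ranged from -0.0123 to 0.0694 and -0.0507 to 0.0151 at 1 h and 3 h after carbon ions and -0.0895 to 0.0323 at 1 h after X-rays, and probe 300015 from -0.135 to 0.0476 at 3 h after carbon ions.

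Median centring turned CCNG1 at 1 h (0.0838) and 3 h after carbon ions (0.0409) and for 3 h against 1 h (0.00877), and at 3 h after carbon ions MDM4 probes 276036 (0.0446) and 300015 (0.0364). The values as deposited turned CCNG1 at 1 h after carbon ions (0.0566) and MDM4 between beams at 3 h (-0.0125). PPM1D at 1 h after carbon ions turned without the level filter (-0.00799) and under normalization over all probes (-0.0425 with each of its 3 variance settings). That normalization also turned MDM4 probe 276036 at 1 h after carbon ions (-0.0259 with each). The cause of these shifts was not tested. As deposited, 38.0% of calls at 3 h after carbon ions were higher, 24.5% at 3 h after X-rays and 28.8% for 3 h against 1 h (55.6% reported, 74.8% with median centring).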
